A study of Mus musculus with 27 samples.

Results

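Distal colon from mice with an epithelial deletion of Foxa1 and Foxa2, which encode forkhead transcription factors, was compared with distal colon from control mice. Members were the libraries labelled distal colon, 13 of the 27 libraries of the series, of which 6 were control and 7 Foxa1/2-deficient. Deficient mice carried Villin1-Cre; Foxa1lox/lox; Foxa2lox/lox. Villin1-Cre is a recombinase driven by the promoter of a gene of the intestinal epithelium, so the loxP-flanked alleles are removed in epithelial cells and not in muscle, stroma or immune cells. Of the control mice, 4 were Foxa1lox/lox; Foxa2lox/lox without Cre (replicates 2 to 5). Control replicate 1 was Villin1-Cre; Foxa1lox/wt; Foxa2lox/wt and control replicate 6 was Villin1-Cre; Foxa1lox/lox; Foxa2lox/wt, so both of these carried the Cre and at least 1 wild-type Foxa2 allele. All animals carried loxP-flanked alleles and were of mixed background. Control mice were labelled male and were 9 to 18 months old, and deficient mice were 9 to 13 months old, with replicates 5 and 7 labelled female. Control replicates 5 and 6 were 18 months old, an age that no deficient mouse reached. Polyadenylated RNA came from short segments of whole colonic tissue with no separation of epithelium. The labels give each library its own replicate number and do not say whether tissue was pooled, so 1 replicate was taken as 1 mouse.

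Foxa1 and Foxa2 are winged-helix proteins that bind their sites in compacted chromatin and are known as pioneer factors of endoderm-derived organs such as liver, pancreas, lung and gut. In the gut epithelium they are known for their part in the formation of goblet cells, which secrete mucus, and of enteroendocrine cells, which secrete hormones. The distal colon is the segment where the epithelium absorbs sodium, chloride and water from the forming stool, keeps a thick mucus layer, and borders on the squamous epithelium of the anal canal.

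The targeted genes and the labels were examined first. Levels are given in CPM, the estimated counts of a gene scaled to a common library size. Foxa2 (ENSMUSG00000037025.11, chr2:148042877-148046969, minus strand, GRCm38) lay at 14.1, 17.4 and 27.2 CPM as the lowest, median and highest of the control libraries and at 0.298, 0.848 and 1.24 CPM in the deficient libraries. The groups did not overlap. Foxa1 (ENSMUSG00000035451.7, chr12:57540628-57546916, minus strand) lay at 6.69 to 9.51 CPM in deficient colons, against 38.6 to 72.4 CPM in control replicates 1 to 5, but at 6.87 CPM in control replicate 6, inside the deficient range. That library kept Foxa2 at 21.5 CPM, and its label gives 2 loxP-flanked Foxa1 alleles with the Cre. Fold changes were tested with the edgeR quasi-likelihood test, with Benjamini-Hochberg adjustment over all genes tested, and a gene was called when its adjusted p was under 0.05. All adjusted p-values below are from this test. Foxa2 fell (log2 fold change -4.49, SE 0.26, adjusted p = 4.51e-07), and so did Foxa1 (log2 fold change -2.48, SE 0.36, adjusted p = 0.000716). With an offset for transcript length the log2 fold change of Foxa1 was -0.835 with an adjusted p of 0.0517. Exons inside and outside the loxP sites were not separated. Foxa3, the remaining member of the family, was at 37 to 50.8 CPM in control and 31.3 to 42.8 CPM in deficient libraries and did not pass (log2 fold change -0.27, adjusted p = 0.157).

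Hoxb13, a marker of the most posterior gut, was between 111 and 494.8 CPM in the distal libraries and at most 0.0994 CPM in the proximal ones when all libraries were scaled together, so the segment labels held in all 13. Total estimated counts ranged from 18472867 to 56744113 per distal library, with a median of 34211641. Several libraries stood apart within their group. On a principal component analysis, the first axis (24.9% of the variance) separated the groups, with deficient replicates 1 and 2, both from 9-month-old mice, closest to the controls, and the second axis (18.8%) set control replicates 1 and 6 and deficient replicates 3 and 7 apart from the rest. Hoxd13, another posterior gene, was at 62.7 and 25.9 CPM in control replicates 1 and 6 and at 0.888 to 3.78 CPM in the other control libraries, and ranged from 0.819 to 64.6 CPM among deficient libraries. The labels do not give the place of each piece within the distal colon. The Y-linked gene Ddx3y was at 0.556 CPM in deficient replicate 3, labelled male, against 0.179 and 0.272 CPM in the mice labelled female and at least 29.9 CPM in all others. The label was kept, so the fits of mice labelled male below still hold this library and do not remove sex as a difference. Because whole tissue was sequenced, fewer cells of a type and less RNA per cell cannot be told apart in any value below.

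Of 16041 genes tested, 973 were called, a share of 6.07%. They comprised 433 genes higher in deficient mice (2.7% of those tested) and 540 lower (3.37%), and 501 of them changed at least 2-fold (3.12%), 267 upward and 234 downward. The libraries of the groups did not overlap for 565 tested genes (3.52%), 526 of which were called. The median log2 fold change over all genes tested was 0.01. The shares over all genes tested, 6.07% called, 2.7% higher and 3.37% lower, are the background for every gene list below. The lists were chosen with earlier results of these data known, so their counts are descriptions and not tests.

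**Figure D1:**
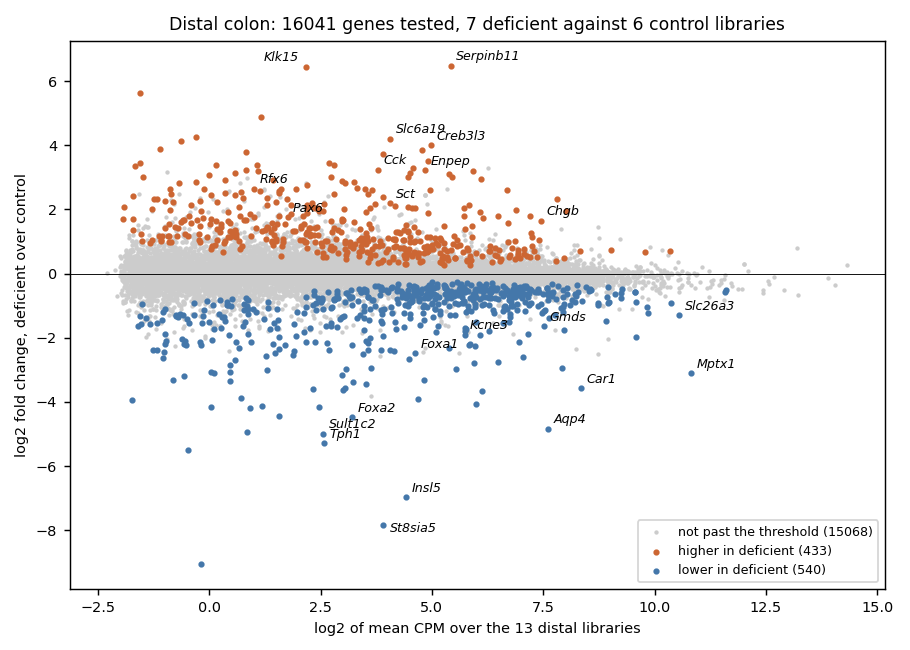
Each point is 1 of the 16041 genes tested, with the log2 of its mean CPM over the 13 distal libraries on the x axis and its log2 fold change, deficient over control, on the y axis. The 433 higher genes (orange) and 540 lower genes (blue) passed an adjusted p under 0.05, and Insl5, Tph1 and Aqp4 lie far below 0 while Serpinb11, Slc6a19 and Creb3l3 lie far above it.

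Among genes with a mean of 5 CPM or more in either group, the lowest fold changes were those of an enteroendocrine hormone, a water channel, and several genes of secretion and detoxification. St8sia5, a sialyltransferase of glycolipid synthesis, was at 4.41, 16.5 and 113 CPM in controls and at 0.0506, 0.0793 and 0.471 CPM in deficient mice (log2 fold change -7.84, SE 0.88, adjusted p = 9.38e-05), with the highest control value in control replicate 1. Sult1c2, a cytosolic sulfotransferase, went from 4.94 to 20.2 CPM to 0.0821 to 0.509 CPM (log2 fold change -4.99, SE 0.39, adjusted p = 5.05e-06). The groups of neither gene overlapped. Sycn, which encodes the granule protein syncollin (log2 fold change -4.05), Ak4, a mitochondrial adenylate kinase (-3.66), Ccn3, a secreted matricellular protein (-3.91), and Nat8f3 (-4.15), an N-acetyltransferase family member, also fell without overlap. Vsig2, an immunoglobulin-domain membrane protein gene, fell (log2 fold change -4.43, adjusted p = 0.00173), although control replicate 6, at 0.393 CPM, lay within the deficient range of 0.0596 to 0.594 CPM. Vmn2r25, annotated as a vomeronasal receptor, fell (log2 fold change -3.62, adjusted p = 0.0107), but not against the 4 controls without Cre alone, where its adjusted p was 0.0639. By absolute level, Mptx1, Slc26a3, Slc26a2, Gsdmc4 and Tgoln1 were among the 6 largest falls in mean CPM. Tgoln1, a protein of the trans-Golgi network, went from 1272 to 2157 CPM to 709.9 to 1065 CPM (log2 fold change -0.92, SE 0.15, adjusted p = 0.00146). Gsdmc4 belongs to the gasdermin C family, whose near-identical copies share reads, so its fall (log2 fold change -1.99, adjusted p = 0.0139) is uncertain as to the copy, and it did not pass in the mice labelled male alone (adjusted p = 0.0607).

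**Figure D2:**
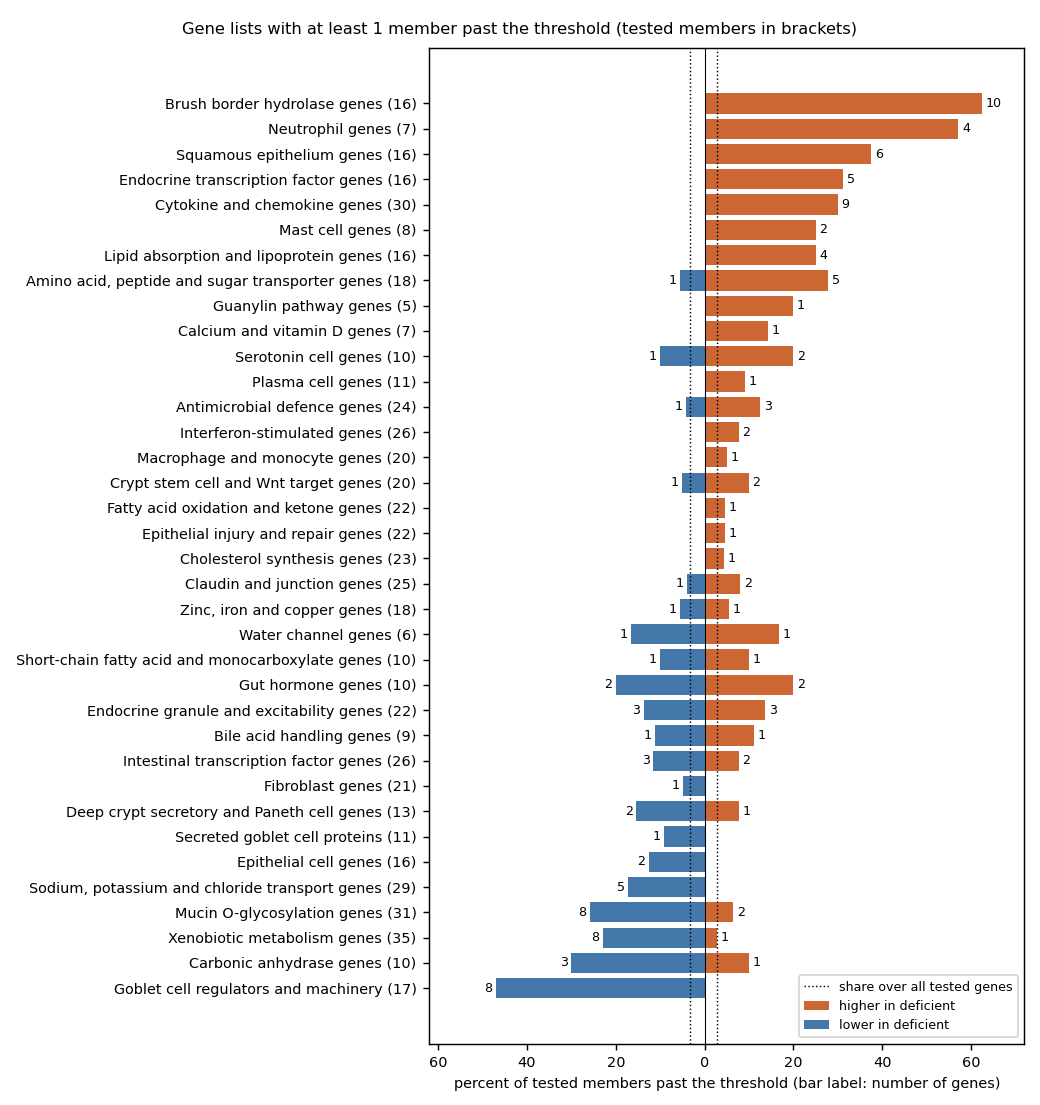
Bars give the percent of tested members of each gene list that were higher (right, orange) or lower (left, blue) in deficient distal colon, with the number of genes at the bar's end and the number of tested members in brackets. Dotted lines mark the shares over all tested genes, 2.7% higher and 3.37% lower, and brush border hydrolase genes (10 of 16 higher) and goblet cell regulators (8 of 17 lower) lie at the ends of the order. The lists were chosen with earlier results of these data known.

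Hormone genes of enteroendocrine cells changed in both directions. Of 10 tested hormone genes, Insl5 and Gcg fell, Sct and Cck rose and 6 did not pass, with a median log2 fold change of -0.70. Insl5, an insulin-like peptide made by L cells of the distal gut, lay at 35.4, 43.1 and 62.7 CPM as the lowest, median and highest control library and at 0.0679, 0.329 and 0.622 CPM in deficient mice (log2 fold change -6.98, SE 0.29, adjusted p = 1.23e-08). Each deficient library had less than any control. Gcg, which encodes proglucagon and so glucagon-like peptides, lay at 27.8, 39.4 and 66.4 CPM in controls and at 6.92, 15.5 and 24 CPM in deficient mice (log2 fold change -1.46, SE 0.26, adjusted p = 0.00361), again without overlap. Cck, which encodes cholecystokinin, a hormone of the upper small intestine, was at 0.969, 2.84 and 3.34 CPM in controls and at 12.6, 20.9 and 41.6 CPM in deficient mice (log2 fold change 3.23, SE 0.32, adjusted p = 3.36e-05). Sct, which encodes secretin, was at 3.6, 5.63 and 8.43 CPM in controls and 9.43, 15 and 63.2 CPM in deficient mice (log2 fold change 2.18, SE 0.44, adjusted p = 0.00713). Deficient replicates 1 and 2 were the highest for both, with 63.2 and 43.7 CPM of Sct, and without replicate 1 the log2 fold change of Sct was 1.79 (adjusted p = 0.00777). Pyy, another L-cell hormone, was at 62.7 to 109 CPM in controls and 64.7 to 174 CPM in deficient mice and did not pass (log2 fold change 0.45, adjusted p = 0.331). Sst, encoding somatostatin, lay just outside the threshold (log2 fold change -1.43, adjusted p = 0.0505).

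Promoters of the 4 hormone genes that changed are shown because these genes lie in the same cell lineage and moved in opposite directions. Each sequence is the 250 bases before the annotated start, 5′ to 3′ on the gene's own strand (minus in all 4), from RefSeq, GRCm38.p6. They span chr4:103027272-103027521 for Insl5, chr2:62483654-62483903 for Gcg, chr7:141279134-141279383 for Sct and chr9:121495695-121495944 for Cck. Capitals mark a match to the forkhead motifs TGTTTAC or TGTTTGC on either strand.
Insl5: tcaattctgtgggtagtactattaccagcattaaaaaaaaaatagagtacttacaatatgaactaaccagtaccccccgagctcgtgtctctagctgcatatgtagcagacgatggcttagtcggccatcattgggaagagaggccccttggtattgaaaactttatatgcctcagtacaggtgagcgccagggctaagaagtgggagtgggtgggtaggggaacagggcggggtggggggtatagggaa
Gcg: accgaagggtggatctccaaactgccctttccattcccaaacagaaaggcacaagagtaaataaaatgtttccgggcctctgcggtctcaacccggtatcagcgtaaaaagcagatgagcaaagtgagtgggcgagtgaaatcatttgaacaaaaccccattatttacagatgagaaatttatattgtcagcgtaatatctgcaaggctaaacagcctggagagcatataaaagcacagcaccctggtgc
Sct: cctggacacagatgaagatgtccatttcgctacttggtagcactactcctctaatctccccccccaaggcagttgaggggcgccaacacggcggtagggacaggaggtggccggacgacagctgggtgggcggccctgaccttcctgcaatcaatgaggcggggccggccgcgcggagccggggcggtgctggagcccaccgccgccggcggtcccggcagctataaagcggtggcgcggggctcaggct
Cck: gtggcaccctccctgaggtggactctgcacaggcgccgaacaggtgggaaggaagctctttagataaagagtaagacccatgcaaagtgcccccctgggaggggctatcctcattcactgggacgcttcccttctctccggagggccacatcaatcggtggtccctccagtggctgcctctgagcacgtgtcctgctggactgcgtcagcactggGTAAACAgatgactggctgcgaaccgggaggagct
Only Cck, which rose, held an exact match to TGTTTAC or TGTTTGC in this window, on the strand opposite the gene. Looser forms of the forkhead motif were not searched, so a sequence without capitals may still hold one. Of all 27025 promoter windows in the table (250 bases before to 50 after a start), 8.34% held 1 of these motifs. Only 416 of the 540 lower and 336 of the 433 higher genes had an entry in the table, under 80% of each set, so no share was compared between sets. A match is a description of these letters and says nothing of binding.

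Per transcript length, the mix of hormone messages was different in the groups. In TPM, which divides by length and so allows levels of different genes to be set side by side, Insl5 was 126 ± 30.8 TPM in controls (SD, n = 6) and 1.19 ± 0.619 TPM in deficient mice (SD, n = 7). It made up 16.5% ± 3.41 of the summed TPM of 14 hormone genes in controls and 0.128% ± 0.0625 in deficient mice. Gcg went from 9.29% ± 4.48 to 2.96% ± 1.35 of that sum. Cck went from 0.999% ± 0.515 to 7.97% ± 2.74 and Sct from 3.65% ± 1.93 to 13.3% ± 8.5. Pyy remained the most abundant hormone message, with 48.9% ± 2.85 in controls and 58.1% ± 7.4 in deficient mice. Tac1 varied widely between libraries, with 16.6% ± 12.4 in controls and 15.9% ± 9.24 in deficient mice, and the sum and all shares vary with it. Which cells of the whole tissue made each message was not tested. The summed TPM of the 14 genes was 595 to 996 in controls (median 764) and 668 to 1237 in deficient mice (median 872), so the groups overlapped in the total while they differed in its makeup. These shares are a description and were not tested.

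Genes of serotonin-producing enterochromaffin cells also changed in both directions. Tph1, the rate-limiting enzyme of serotonin synthesis outside the nervous system, lay at 7.63, 12.9 and 18.4 CPM in controls and at 0.119, 0.295 and 0.602 CPM in deficient mice (log2 fold change -5.30, SE 0.36, adjusted p = 2.05e-06). The groups were far apart. Chgb, which encodes the granule protein chromogranin B, lay at 48.5, 78.3 and 119 CPM in controls and 177, 227 and 417 CPM in deficient mice (log2 fold change 1.65, SE 0.24, adjusted p = 0.000854), also without overlap. Chga, the gene of chromogranin A, did not pass (log2 fold change -0.68, adjusted p = 0.0538), and neither did Slc18a1, a vesicular monoamine transporter (log2 fold change -0.81, adjusted p = 0.0701), nor Ddc, which encodes the enzyme acting after Tph1 (log2 fold change -0.14, adjusted p = 0.784). In all, 2 of 10 tested genes of this list rose, 1 fell and 7 did not pass, and 4 fell without control replicate 5.

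Of 16 tested transcription factors of the endocrine lineage, 5 rose and 0 fell, and the median log2 fold change was 0.79. The share called was 31.25%, against 6.07% over all genes tested. Neurog3, the factor that starts the lineage, was at 0.19, 0.33 and 0.902 CPM in controls and 0.715, 1.6 and 1.98 CPM in deficient mice (log2 fold change 1.69, SE 0.38, adjusted p = 0.0139), with overlap. Its call did not hold in mice of 9 to 13 months (adjusted p = 0.0731) or with an offset for transcript length (adjusted p = 0.0687). Rfx6 lay at 0.238 to 0.751 CPM in controls and 2.44 to 4.68 CPM in deficient mice (log2 fold change 2.64, SE 0.30, adjusted p = 9.96e-05), and Pax6 at 1.14 to 1.86 and 4.17 to 6.05 CPM (log2 fold change 1.75, SE 0.16, adjusted p = 2.05e-05). Neither overlapped. Neurod1 (log2 fold change 1.63) and Insm1 (1.46), which act downstream of Neurog3, also rose without overlap. Nkx2-2 (log2 fold change 0.87, adjusted p = 0.103) and Isl1 (log2 fold change -0.04, adjusted p = 0.972) did not pass. Among 22 genes of endocrine granules and excitability, 3 rose and 3 fell, against 4 and 1 with controls without Cre. Ptprn2, a granule membrane protein, fell (log2 fold change -1.40, SE 0.19, adjusted p = 0.000383), as did Pam, the enzyme that amidates peptide hormones (log2 fold change -0.60, adjusted p = 0.0227), and Syt7, a calcium sensor of exocytosis (log2 fold change -0.45, adjusted p = 0.0141). Scg3 (log2 fold change 0.97, adjusted p = 0.00312), a secretogranin, Cpe (log2 fold change 0.57, adjusted p = 0.0084), a prohormone carboxypeptidase, and Vwa5b2 (log2 fold change 1.34, adjusted p = 0.00661) rose. The calls of Cpe and Vwa5b2 did not hold with an offset for transcript length (adjusted p = 0.0984 and 0.327), and that of Scg3 did not hold on the authors' log2 CPM matrix (adjusted p = 0.278). Many of these genes are also active in enteric neurons. Of 20 enteric neuron and glia genes 0 passed the edgeR test (6 at an unadjusted p under 0.05, 1 with DESeq2 and 0 with limma on the authors' matrix), with a median log2 fold change of -0.58 and a summed level of 40.5 to 81.8 CPM in controls and 26.2 to 66.2 CPM in deficient mice. Its part in the fall of granule genes was not tested.

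**Figure D3:**
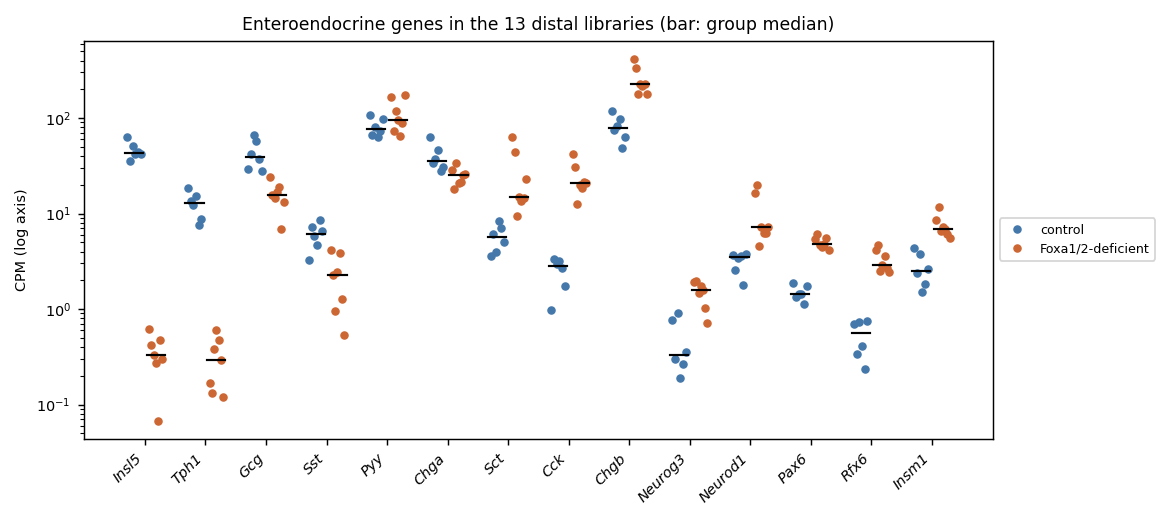
CPM on a log axis of 14 enteroendocrine genes, 1 point a library, 6 control (blue) and 7 Foxa1/2-deficient (orange), with a bar at each group's median. Insl5, Tph1 and Gcg are lower in every deficient library than in any control, and Cck, Sct, Chgb, Pax6 and Rfx6 are higher in every one.

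Goblet cell genes fell in part. Of 17 regulators and machinery genes, 8 fell and 0 rose, with a median log2 fold change of -0.52. Capn9, a calpain of mucus-secreting cells, lay at 54.1, 66.7 and 86 CPM in controls and 19.8, 29 and 35.2 CPM in deficient mice (log2 fold change -1.29, SE 0.16, adjusted p = 0.000181), and its relative Capn8 at 7.32 to 13.9 and 1.32 to 5.56 CPM (log2 fold change -1.64, SE 0.28, adjusted p = 0.00259). Neither overlapped. Sytl4, a granule docking protein (log2 fold change -1.18, adjusted p = 0.000949), and Bcas1 (log2 fold change -1.04, adjusted p = 0.00465) fell as well. The fall was smaller for the secretory lineage factor Atoh1 (log2 fold change -0.61, adjusted p = 0.00677), for Gfi1, which acts after it (log2 fold change -0.77, adjusted p = 0.00762), and for Creb3l1 (log2 fold change -0.71, adjusted p = 0.0202). Spdef, the factor of goblet cell maturation, did not pass (log2 fold change -0.34, adjusted p = 0.165). Of 11 secreted goblet cell proteins, 1 fell, with a median of -0.69, and 3 fell against controls without Cre. The summed level of all 13 genes of the list, tested or not, was 23279 to 35391 CPM in controls and 13177 to 24645 CPM in deficient mice. The gene that fell against all controls was Itln1, a lectin that binds microbial sugars, at 1.32 to 58.7 CPM in controls and 0.632 to 3.5 CPM in deficient mice (log2 fold change -3.44, SE 0.71, adjusted p = 0.00847). Its call did not hold on the authors' matrix (adjusted p = 0.0614).

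The call of Muc2, the gel-forming mucin of the colon, depended on which controls were used. It was at 429 and 668 CPM in the 2 controls with Cre, at 1641 to 2523 CPM in the 4 controls without Cre, and at 681 to 1146 CPM in deficient mice. Against all controls it did not pass (log2 fold change -0.69, adjusted p = 0.292). Against the controls without Cre it passed, with a log2 fold change of -1.09 (SE 0.18, adjusted p = 0.00304). Retnlb, a goblet cell antimicrobial protein, was at 22.7 and 174 CPM in the controls with Cre and 510.4 to 1764 CPM in those without. Its log2 fold change was -2.50 (adjusted p = 0.12) against all controls and -3.03 (adjusted p = 0.0321) against those without Cre. The same 2 libraries had the highest Hoxd13 among controls, so Cre, the position of the piece and, for control replicate 6, the age of 18 months cannot be told apart here.

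Of 31 enzymes and transporters of mucin O-glycosylation, 8 fell and 2 rose (median -0.22), a share of 32.3% against 6.07% over all genes tested. Gmds, which makes GDP-fucose, lay at 229.7, 288 and 338 CPM in controls and at 75.4, 93.2 and 108 CPM in deficient mice (log2 fold change -1.64, SE 0.11, adjusted p = 1.88e-06). The fucosyltransferase gene Fut2 lay at 272, 339.8 and 408 CPM in controls and 135, 179 and 236 CPM in deficient mice (log2 fold change -0.95, SE 0.13, adjusted p = 0.000575). The groups did not overlap for either gene of this fucose pathway. Galnt4, which starts O-glycans, fell (log2 fold change -0.82, adjusted p = 0.000825), as did Galnt7 (log2 fold change -0.59, adjusted p = 0.0108) and Galnt10 (log2 fold change -0.49, adjusted p = 0.0185) of the same family. The branching enzyme gene Gcnt3 fell (log2 fold change -1.11, adjusted p = 0.00614), while its relative Gcnt4 rose from 1.59 to 3.93 CPM to 5.64 to 11.8 CPM (log2 fold change 1.43, adjusted p = 0.0019). Slc26a2, which imports sulfate for the sulfation of mucins, fell from 669.8 to 2118 CPM to 308 to 779.8 CPM (log2 fold change -1.22, adjusted p = 0.0125), but not when only the controls without Cre (adjusted p = 0.0683) or the mice labelled male (adjusted p = 0.0527) were used.

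Several genes of ion, bicarbonate and water movement fell. Of 29 sodium, potassium and chloride transport genes, 5 fell and 0 rose. Against controls without Cre 2 fell and 1 rose, and 3 fell without control replicate 1, 2 or 3 or without deficient replicate 4 or 6. Kcne3, a subunit of the basolateral potassium channel that drives chloride secretion, lay at 55.8, 86.2 and 121 CPM in controls and 17.5, 23.1 and 28.7 CPM in deficient mice (log2 fold change -1.91, SE 0.18, adjusted p = 2.15e-05), without overlap. Slc26a3, the chloride and bicarbonate exchanger of colonic absorption, lay at 1292, 2253 and 3444 CPM in controls and 451, 895 and 1424 CPM in deficient mice (log2 fold change -1.30, SE 0.28, adjusted p = 0.011). Its groups overlapped, and against controls without Cre alone its log2 fold change was -1.09 (adjusted p = 0.0507). Nr3c2, the mineralocorticoid receptor gene, fell (log2 fold change -0.57, adjusted p = 0.0472), as did Nedd4l, a ubiquitin ligase that limits the epithelial sodium channel (log2 fold change -0.64, adjusted p = 0.0116). On the authors' matrix Nedd4l had a log2 fold change of 0.154 (adjusted p = 0.82), a turn of direction. The channel's own subunit genes did not pass (Scnn1a -0.41, Scnn1b -0.45, Scnn1g 0.46).

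Carbonic anhydrases, which make bicarbonate, had 3 of 10 genes lower and 1 higher (median -0.84). Car1 lay at 316, 560.0 and 1362 CPM in controls and 21.8, 57.9 and 111 CPM in deficient mice (log2 fold change -3.57, SE 0.44, adjusted p = 0.000181), and Car2 at 634, 709 and 931 and 172, 253 and 345 CPM (log2 fold change -1.49, SE 0.16, adjusted p = 6.51e-05). Neither overlapped. Car8, a member without enzyme activity, fell (log2 fold change -2.97, adjusted p = 0.00466), and Car9, a membrane-bound form, rose (log2 fold change 0.72, adjusted p = 0.00555). The water channel gene Aqp4 fell from 224, 397 and 635 CPM in controls to 6.78, 16.1 and 20.7 CPM in deficient mice (log2 fold change -4.84, SE 0.35, adjusted p = 2.5e-06), among the lowest fold changes of all. Aqp8, the abundant apical channel of the colon, did not pass (log2 fold change -0.17, adjusted p = 0.843). Guca2b, encoding uroguanylin, a peptide that stimulates salt and water secretion, rose from 6.51, 11.6 and 17.6 CPM to 25.9, 42.1 and 61.6 CPM (log2 fold change 1.89, SE 0.24, adjusted p = 0.000276), while Guca2a, encoding guanylin, did not pass (log2 fold change -0.99, adjusted p = 0.217). Ffar2, a receptor of short-chain fatty acids, fell (log2 fold change -2.37, adjusted p = 0.00221), although control replicate 6, at 2.68 CPM, lay in the deficient range. Slc16a3, a lactate exporter, rose (log2 fold change 1.50, adjusted p = 0.00152).

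Most tested enzymes of the enterocyte brush border rose. Of 16 tested brush border hydrolases, 10 were higher and 0 lower, against 2.7% higher among all genes, with a median log2 fold change of 1.01 against 0.01. The list was chosen with earlier results of these data known, so this contrast is a description and not a test. Enpep, glutamyl aminopeptidase, lay at 2.9, 4.82 and 7.56 CPM in controls and at 29.2, 46.2 and 68.3 CPM in deficient mice (log2 fold change 3.21, SE 0.25, adjusted p = 5.42e-06). Naaladl1, a peptidase of the small intestine, lay at 3.98, 5.72 and 20.2 and 54.9, 66.5 and 87.8 CPM (log2 fold change 3.10, SE 0.36, adjusted p = 0.000119), with control replicate 6 the highest control. Alpi, intestinal alkaline phosphatase, lay at 1.24, 6.86 and 22.1 and 30.2, 51.9 and 180.4 CPM (log2 fold change 3.01, SE 0.61, adjusted p = 0.00774). No groups overlapped for these 3 genes. Ggt1, which cleaves glutathione, lay at 6.2 and 10.7 CPM in control replicates 1 and 6, at 0.728 to 1.06 CPM in the other controls and at 14.1 to 87.8 CPM in deficient mice (log2 fold change 3.86, SE 0.75, adjusted p = 0.00638). Dpp4 (log2 fold change 0.90, adjusted p = 0.000623), Anpep (log2 fold change 1.11, adjusted p = 0.00944) and Xpnpep2 (log2 fold change 1.32, adjusted p = 0.00252), which trim peptides, rose by less. The call of Anpep did not hold with an offset for transcript length (adjusted p = 0.146). Sis, sucrase-isomaltase, rose (log2 fold change 2.63, adjusted p = 0.00661) but stayed at 0.412 to 2.17 CPM, a low level. Mep1a (-0.23) and Mme (-0.37) did not pass.

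Of 18 amino acid, peptide and sugar transporters, 5 rose and 1 fell (median 0.35), a share of 33.3% against 6.07% over all genes tested. Slc6a19, the main neutral amino acid transporter of the small intestine and kidney, lay at 1.06, 1.42 and 2.58 CPM in controls and 7.3, 20.7 and 97.4 CPM in deficient mice (log2 fold change 4.21, SE 0.55, adjusted p = 0.000347). Deficient replicate 1 was the highest, and without it the log2 fold change was 3.51 (adjusted p = 2.15e-05). Slc7a8 (log2 fold change 2.16, adjusted p = 0.0362), Slc3a1 (log2 fold change 1.98, adjusted p = 0.0169), Slc6a20a (log2 fold change 1.48, adjusted p = 0.00762) and Slc1a1 (log2 fold change 0.55, adjusted p = 0.00726) rose too. The call of Slc3a1 did not hold in mice of 9 to 13 months (adjusted p = 0.0952) or with the replicate number as a block (adjusted p = 0.0821). Slc6a14, the amino acid transporter abundant in the distal colon, fell from 928 to 1509.7 CPM to 357 to 869 CPM (log2 fold change -1.05, adjusted p = 0.00441). Of 16 lipid absorption and lipoprotein genes, 4 rose and 0 fell, a share of 25% against 6.07% over all genes tested. Creb3l3, a membrane-bound transcription factor of lipid metabolism in liver and small intestine, lay at 2.38, 3.08 and 5.65 CPM in controls and 33.9, 40.2 and 132 CPM in deficient mice (log2 fold change 3.997, SE 0.38, adjusted p = 2.41e-05), again with deficient replicate 1 the highest. Mttp, which loads lipoproteins with lipid (log2 fold change 1.65, adjusted p = 0.000543), Scarb1, a lipoprotein receptor (log2 fold change 0.99, adjusted p = 0.00481), and Abca1, a cholesterol exporter (log2 fold change 1.09, adjusted p = 0.00695), rose. Apoa4 (log2 fold change 2.30, adjusted p = 0.138) and Fabp2 (log2 fold change -1.55, adjusted p = 0.417) did not pass. Slc30a2, a zinc exporter, rose from 0.479 to 2.58 CPM to 1.69 to 20.1 CPM (log2 fold change 3.45, adjusted p = 0.00101).

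**Figure D4:**
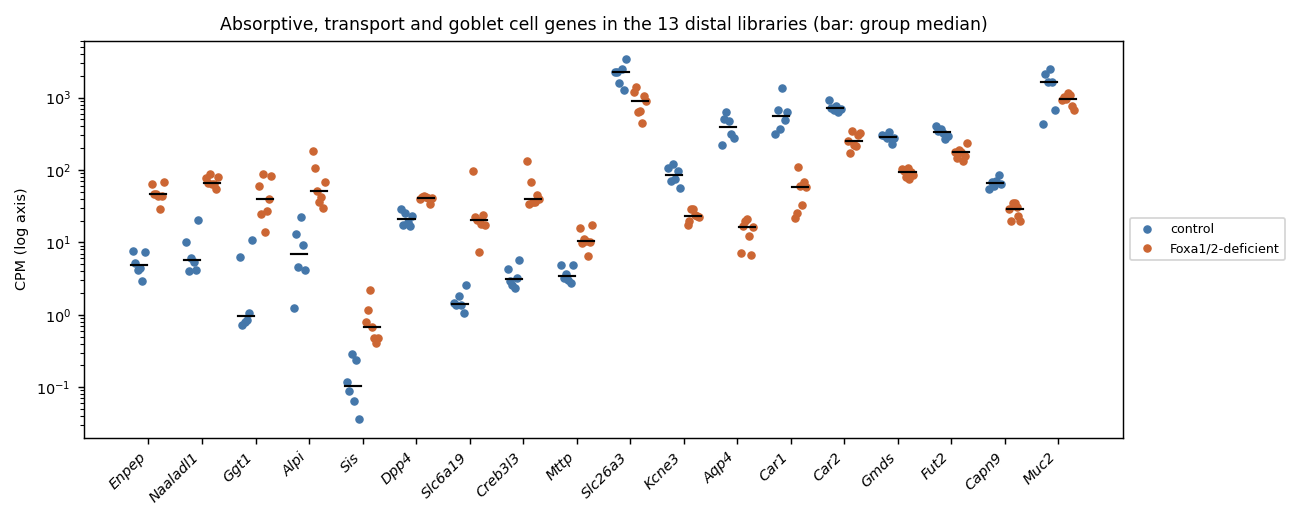
CPM on a log axis of 18 epithelial genes, 1 point a library, 6 control (blue) and 7 Foxa1/2-deficient (orange), with a bar at each group's median. The 9 genes on the left, from Enpep to Mttp, are higher in every deficient library than in any control, and 2 of the 6 Muc2 values of controls lie below the deficient range.

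Several detoxification enzymes fell. Of 35 xenobiotic metabolism genes, 8 fell and 1 rose (median -0.39), a share of 25.7% against 6.07% over all genes tested. Ugt1a6a, a glucuronosyltransferase, lay at 42.5, 97.6 and 121 CPM in controls and 5.26, 10.4 and 18.7 CPM in deficient mice (log2 fold change -2.99, SE 0.28, adjusted p = 2.41e-05). The glutathione transferases Gstm1 (log2 fold change -1.69, adjusted p = 0.000117) and Gstm3 (log2 fold change -2.01, adjusted p = 0.000874) and the cytochrome P450 Cyp2c68 (log2 fold change -2.37, adjusted p = 0.0024) also fell. Members of the Ugt1a, Gstm and Cyp2c families share sequence, and reads were divided between copies by kallisto's model, so the values of single copies are uncertain. Abcc3, which exports conjugated bile acids from the basal side of the cell, fell from 246 to 434 CPM to 107 to 214 CPM (log2 fold change -1.07, SE 0.17, adjusted p = 0.00171), without overlap. Of 22 fatty acid oxidation genes and 23 cholesterol synthesis genes, 1 each rose, Pdk4 and Mvd, and 0 fell. These shares were 4.55% and 4.35%, against 6.07% over all genes tested. Neither rise passed against controls without Cre.

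Among 26 intestinal transcription factors, Foxa1, Foxa2 and Isx fell, Maf and Prdm1 rose and 21 did not pass. Prdm1, which encodes Blimp1, a factor of the immature small intestinal epithelium and of plasma cells, lay at 13.6, 18.8 and 24.5 CPM in controls and 31.5, 40.0 and 66.1 CPM in deficient mice (log2 fold change 1.15, SE 0.18, adjusted p = 0.0012), without overlap. Of the 10 other plasma cell genes tested, 0 passed (1 at an unadjusted p under 0.05, 0 with DESeq2 and 0 with limma on the authors' matrix). Maf, a factor of enterocytes and of macrophages, rose from 13.1 to 24 CPM to 35 to 86.4 CPM (log2 fold change 1.49, SE 0.20, adjusted p = 0.000364). Isx, a homeobox factor that limits vitamin A uptake, fell (log2 fold change -1.52, adjusted p = 0.0273). Cdx2, which sets intestinal identity, and Hnf4a, a factor of enterocyte differentiation, did not pass, at -0.43 and 0.00 on the log2 scale. Of 8 posterior Hox genes 0 passed (median 0.08; 0 at an unadjusted p under 0.05, 0 with DESeq2 and 0 with limma on the authors' matrix), with Hoxb13 at 106 to 447 CPM in controls and 103 to 427 CPM in deficient mice.

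Of 26 proliferation genes 0 passed the edgeR test (median 0.27; 3 at an unadjusted p under 0.05, 0 with DESeq2 and 0 with limma on the authors' matrix), with Mki67 at 51.2 to 149 CPM in controls and 73.2 to 215 CPM in deficient mice. Of 20 tuft cell genes 0 passed, with 3, 1 and 0 by the same 3 counts, and of 23 unfolded protein response genes 0 passed, with 1, 1 and 0. Over all 16041 genes, 2944 had an unadjusted p under 0.05. Among 20 tested genes of crypt stem cells and Wnt targets, 2 rose, Lgr5 (log2 fold change 1.54, adjusted p = 0.0302) and Olfm4 (log2 fold change 3.38, adjusted p = 0.0222), and 1 fell (median 0.05). The share called was 15%, against 6.07% over all genes tested. Olfm4 was low, at 0.0715 CPM in control replicate 6, and the filter on low counts removed it in some fits without 1 deficient library. Against controls without Cre 0 rose and 2 fell, and without control replicate 1 neither rise passed. Rgmb, a membrane protein of crypt cells, fell (log2 fold change -0.60, adjusted p = 0.015), though not in mice labelled male alone (adjusted p = 0.0609). Deep crypt secretory cells are the colonic counterpart of Paneth cells. Of 13 genes of these cells, 1 rose, 2 fell, Mptx1 and Mptx2, and 10 did not pass (median -0.17), with 0 lower without deficient replicate 6. Mmp7, a Paneth cell protease, rose to 0.37 to 6.49 CPM from 0.194 to 0.571 CPM (log2 fold change 3.23, SE 0.65, adjusted p = 0.00733). Mptx1, a pentraxin that was among the most abundant transcripts in controls at 1009.6, 3486 and 6494 CPM, lay at 31.2, 253 and 889 CPM in deficient mice (log2 fold change -3.11, SE 0.75, adjusted p = 0.0216). Mptx1 and Mptx2 are close copies. Without deficient replicate 6 the call of Mptx1 was lost (adjusted p = 0.054), and among mice of 9 to 13 months it was 0.0559.

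Several members of the squamous epithelium list, among them Serpinb11 and Krt36, were high in 5 of the 7 deficient libraries. Krt5, Krt4, Krt1 and Trp63 of the list were not among them. Of 33 genes in the list 16 were tested, of which 6 rose and 0 fell, with a median log2 fold change of 0.87. Serpinb11, a serine protease inhibitor family member, lay at 1.13 and 1.14 CPM in deficient replicates 1 and 2 and at 55.4 to 178 CPM in deficient replicates 3 to 7. Control replicate 6 was at 4.04 CPM and the other controls at 0.166 to 0.555 CPM (log2 fold change 6.48, SE 1.28, adjusted p = 0.00677). The 9-month-old deficient mice lay within the control range. Krt36, a keratin, had the same order, with 3.38 and 5.71 CPM in deficient replicates 2 and 1, 29.1 to 37.5 CPM in the other deficient libraries, 5.54 CPM in control replicate 6 and 0.951 to 1.73 CPM in the remaining controls (log2 fold change 3.72, SE 0.64, adjusted p = 0.00252). Ly6d (log2 fold change 3.18, adjusted p = 0.00438) and Krt16 (log2 fold change 2.85, adjusted p = 0.0258) rose, as did Klk15, a kallikrein protease (log2 fold change 6.45, adjusted p = 0.01), at 0 to 0.233 CPM in controls and 0.0264 to 35.1 CPM in deficient mice, whose call did not hold among mice of 9 to 13 months (adjusted p = 0.0538). Krt90, a keratin outside the list, rose (log2 fold change 3.30, adjusted p = 0.0136), though not in mice labelled male alone (adjusted p = 0.054). Krt14 (log2 fold change 0.93, adjusted p = 0.352) and Krt13 (log2 fold change 1.52, adjusted p = 0.103), defining keratins of stratified epithelium, did not pass. The basal and suprabasal markers Krt5, Krt4, Krt1 and Trp63 were at most 0.116 CPM in every library and were not tested. The summed level of the list was 299.9 to 731 CPM in controls and 342 to 975 CPM in deficient mice. Without control replicate 6, 9 of its members rose, and without deficient replicate 6, 3 did, Klk15 then being too low to be tested. How much of these values came from adjacent anal epithelium was not tested.

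Of 30 cytokine and chemokine genes, 9 rose and 0 fell, with a median log2 fold change of 1.05. Il1b, a cytokine of myeloid cells, lay at 1.9, 5.28 and 5.82 CPM in controls and 6.16, 21.7 and 34.1 CPM in deficient mice (log2 fold change 2.04, SE 0.41, adjusted p = 0.00716), without overlap, and the lowest deficient values were those of replicates 1 and 2. Cxcl2 (log2 fold change 2.64, adjusted p = 0.0153) and Ccl7 (log2 fold change 2.59, adjusted p = 0.00608), which attract neutrophils and monocytes, Ccl20 (log2 fold change 2.15, adjusted p = 0.0136) and Il1a (log2 fold change 2.32, adjusted p = 0.0214) rose. Cxcl2 was at 0.899 and 0.905 CPM in deficient replicates 2 and 1, inside the control range of 0.404 to 1.69 CPM, and at 2.81 to 9.93 CPM in the others. Ccl25, a chemokine of small intestinal epithelium, rose without overlap (log2 fold change 1.26, adjusted p = 0.00332). Cxcl16 rose (log2 fold change 1.49, adjusted p = 0.0131), though not in mice labelled male alone (adjusted p = 0.0555). Lcn2, an iron-sequestering protein of inflamed epithelium, lay at 2.44, 3.79 and 8.76 CPM in controls and 11.1, 39.2 and 119.8 CPM in deficient mice (log2 fold change 3.51, SE 0.52, adjusted p = 0.000854). Every deficient library was above every control, replicates 1 and 2 being the lowest. Lcn2 belongs to a list of antimicrobial defence genes, of which 24 were tested, 3 rose, 1 fell and 20 did not pass. Against controls without Cre 4 rose and 4 fell. The list's summed level was 21819 to 41457 CPM in controls and 18045 to 34859 CPM in deficient mice, with overlap. Its other rises, Defb1 and Nod2, lost their calls without any 1 of 10 and 11 libraries, respectively. Mmp9, a neutrophil protease, rose (log2 fold change 2.64, adjusted p = 0.00522), and so did Ereg, an epithelial growth factor of repair (log2 fold change 1.60, adjusted p = 0.00842).

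Other immune genes changed in smaller numbers. Of 14 neutrophil genes in the list 7 were tested, of which 4 rose. Mpo and Elane were among those too low to be tested, at most 0.109 CPM in every library. The list's summed level was 117 to 897 CPM in controls and 157 to 578 CPM in deficient mice, with overlap. Without control replicate 1, 3, 4 or 5 only 1 of its members rose. Of 8 tested mast cell genes, 2 rose and 6 did not pass, while 5 of 9 rose against controls without Cre and 3 of 8 without control replicate 6. Mcpt1 and Mcpt2, proteases of mucosal mast cells, lay at 1.01 to 2.38 and 0.497 to 1.56 CPM in controls and at 5.96 to 42 and 3.04 to 26 CPM in deficient mice, with the highest values in deficient replicate 4 (log2 fold change 2.87, adjusted p = 0.00218, and log2 fold change 2.76, adjusted p = 0.00593). Neither overlapped. Of 20 macrophage and monocyte genes, 1 rose, a share of 5% against 6.07% over all genes tested. It was the integrin gene Itgam (log2 fold change 1.13, adjusted p = 0.018), which did not pass in mice labelled male alone (adjusted p = 0.0916). Of 26 interferon-stimulated genes, 2 rose, a share of 7.69%, near the 6.07% over all genes tested, and 8 rose with Hoxd13 as a covariate. Only 1 rose without any 1 of control replicates 1, 2 and 5 or deficient replicates 1, 2 and 4. Ifit2 lay at 41.9, 102 and 141 CPM in controls and 133, 352 and 924 CPM in deficient mice (log2 fold change 1.96, SE 0.42, adjusted p = 0.0107), with deficient replicates 1 and 2 the highest, at 924 and 448 CPM. Without replicate 1 its log2 fold change was 1.58 (adjusted p = 0.0122). Of 23 T and NK cell, 14 B cell and 10 MHC class II presentation genes 0 passed with edgeR. At an unadjusted p under 0.05 there were 2, 0 and 1, with DESeq2 1, 0 and 0. Ly6e (log2 fold change 0.66, adjusted p = 0.00569), Lama3, a laminin chain of epithelial basement membrane (log2 fold change 2.32, adjusted p = 0.00758), and Chd9 (log2 fold change 0.75, adjusted p = 0.0122), a chromatin remodeller, were among the 6 largest rises in mean CPM. The call of Chd9 did not hold on the authors' matrix (adjusted p = 0.662) or against controls without Cre (adjusted p = 0.067).

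**Figure D5:**
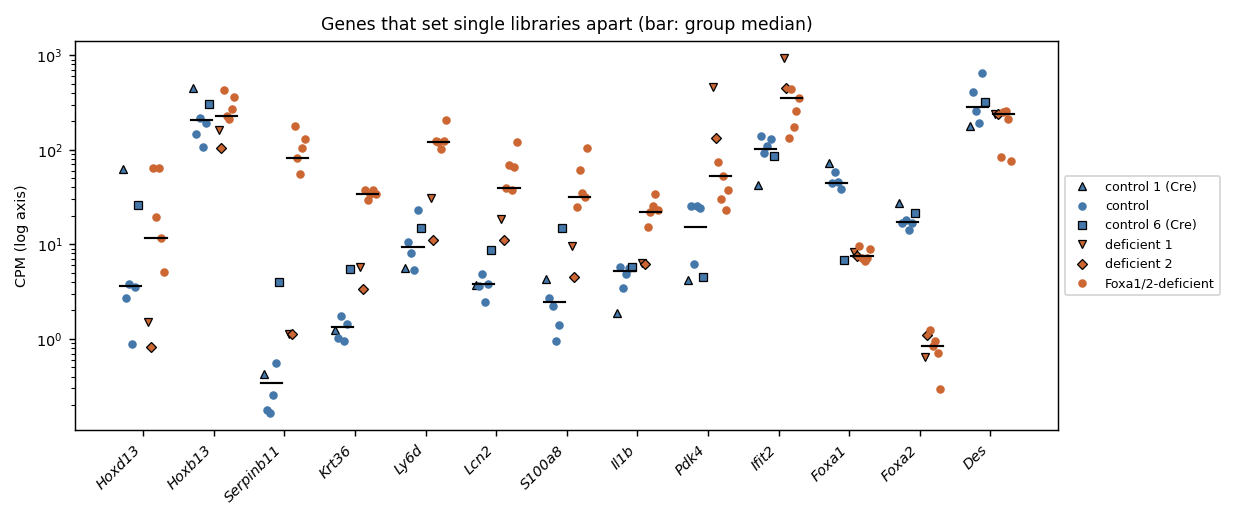
CPM on a log axis of 13 genes in each library, control in blue and Foxa1/2-deficient in orange, with a bar at each group's median and separate symbols for control replicates 1 and 6 and deficient replicates 1 and 2. Deficient replicates 1 and 2 lie near or within the controls for Serpinb11, Krt36, Ly6d and Il1b and at the top for Pdk4 and Ifit2, and control replicate 6 lies with the deficient libraries for Foxa1 but not for Foxa2.

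Markers of tissue outside the epithelium were examined because the pieces held the whole wall. Of 16 smooth muscle genes 0 passed with edgeR (5 at an unadjusted p under 0.05, 0 with DESeq2 and 0 with limma on the authors' matrix), with a median log2 fold change of -0.64 and a summed level of 1555 to 4202 CPM in controls and 773 to 2362 CPM in deficient mice. Of 9 adipocyte genes 0 passed (median -1.49), with 3, 0 and 0 by the same 3 counts, and of 14 endothelial genes 0 passed (median -0.01), with 0, 0 and 0. Of 21 fibroblast genes 1 fell, a share of 4.76% against 6.07% over all genes tested. It was Hhip, a secreted inhibitor of hedgehog signals, at 2.06 to 3.75 CPM in controls and 0.119 to 1.02 CPM in deficient mice (log2 fold change -2.31, SE 0.34, adjusted p = 0.000856). Of 16 pan-epithelial genes, 2 fell, Tspan8 and Phgr1, and the list's summed level was 20888 to 31535 CPM in controls and 16052 to 26621 CPM in deficient mice. Tspan8, a tetraspanin of colonic epithelium, fell (log2 fold change -0.58, adjusted p = 0.0144), but not against controls without Cre (adjusted p = 0.0505), in mice labelled male (0.0584) or in mice of 9 to 13 months (0.0566). Of 13 mitochondrially encoded genes 0 passed (median -0.36), with 6, 2 and 0 by the same counts, and of 15 immediate early and heat shock genes 0 passed, with 3, 1 and 0. The part of tissue makeup in the calls above was not tested.

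Because the control group held 3 genotypes, the place of each control library between the groups was described. Genes were called without that library, and its log2 CPM was placed on a scale from 0, the mean of the other 5 controls, to 1, the mean of the deficient libraries. The median place over the genes called was -0.08 for control replicate 1, 0.06, 0.06 and 0.02 for replicates 2, 3 and 4, 0.18 for replicate 5 and 0.24 for replicate 6. Control replicate 6, with 1 wild-type Foxa2 allele and Foxa1 in the deficient range, lay past the midpoint for 311 of 995 genes (31.3%), and control replicate 1, also with the Cre, for 14.5%. Control replicate 5, without Cre and 18 months old like replicate 6, lay past it for 23.5%. The naming rule drew on calls with control replicate 6 included, which may leave out genes where that library lay with the deficient mice. Of 104 genes so named and also called without it, control replicate 6 lay past the midpoint for 27. These included Foxa1 (1.07), Tfrc (1.10), Rgmb (0.957), Ffar2 (0.858), Vsig2 (0.827) and Itln1 (0.805). Genes with large fold changes lay on both sides of the midpoint in it. Insl5 was at 0.0168, Tph1 at 0.102, Aqp4 at 0.115 and Cck at -0.145, while Defb1 was at 0.866, Krt90 at 0.713, Ggt1 at 0.615, Serpinb11 at 0.569 and Krt36 at 0.545. Over the 534 genes called with at least a 2-fold change its median place was 0.25. With 1 library of this genotype, its genotype, its age and the piece of colon sampled cannot be told apart.

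The naming rule took 113 called genes, of which 90 kept the call in every fit without 1 library that tested them and 23 lost it in at least 1. The filter on low counts removed Olfm4 without any 1 of deficient replicates 3 to 7, and Klk15 without any 1 of deficient replicates 1 and 3 to 7. For Aqp3, Cldn2, Cxcr2, Defb1, Fev, Nod2, Phgr1 and Tfrc leaving out any 1 of 10 or 11 of the 13 libraries ended the call. Tfrc, the transferrin receptor, had an adjusted p of 0.0567 to 0.0988 without any 1 of control replicates 2 to 5 or deficient replicates 1 and 3 to 7. Defb1, a beta-defensin, had 0.0586 to 0.105 without any 1 of control replicates 1 to 5 or deficient replicates 3 to 7. Aqp3 had 0.053 to 0.098 without any 1 of the 6 controls or deficient replicates 2, 5, 6 and 7. Cldn2, a pore-forming claudin, had 0.0511 to 0.0916 without any 1 of control replicates 2, 4, 5 and 6 or deficient replicates 1 to 5 and 7. Phgr1 (0.0723 to 0.0958), Cxcr2 (0.0522 to 0.0994), Nod2 (0.0505 to 0.0914) and Fev (0.0598 to 0.114) lost it without control replicate 4 or 5 or any 1 of deficient replicates 3 to 7. Of the other libraries, control replicates 1, 2 and 6 did so for Phgr1, 1, 3 and 6 for Cxcr2, 1, 2, 3 and 6 for Nod2, and 2, 3 and 6 with deficient replicate 2 for Fev. Of 33 further called members of the lists, 14 lost the call without at least 1 library. Nr3c2 (0.0587 to 0.113) lost it without any 1 library other than control replicate 5 and deficient replicate 7. Isx (0.0541 to 0.0698) lost it without any 1 of control replicates 2 to 4 and deficient replicates 3 to 7, and Slc7a8 (0.0617 to 0.0823) without any 1 of control replicates 2 to 6 and deficient replicates 3, 5 and 7. Krt16 (0.0508 to 0.0606) did so without any 1 of control replicates 1 to 5 and deficient replicate 6, Pam (0.0501 to 0.0564) without control replicate 1, deficient replicate 4 or deficient replicate 5, Creb3l1 (0.0521 to 0.0527) without control replicate 3 or deficient replicate 6, Galnt10 (0.0519) without control replicate 3 and Il1a (0.0509) without control replicate 1. Mice labelled male alone gave no call for Nr3c2, Isx, Slc7a8, Krt16, Creb3l1, Galnt10, Galnt7, Il1a, Ccl20, Cxcl2 or Syt7 (adjusted p from 0.0542 to 0.132). Against controls without Cre, Nr3c2, Slc7a8, Pam, Galnt10, Il1a, Cxcl2 and Syt7 did not pass (0.0521 to 0.242).

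Further calls ended when single libraries were left out. Lgr5, a stem cell marker, lay at 1.22 to 5.41 CPM in controls and 2.92 to 10.2 CPM in deficient mice, and its adjusted p of 0.0302 became 0.0527 to 0.0729 without any 1 of control replicates 1, 2, 4, 5 and 6 or deficient replicates 2, 4 and 5, but not without control replicate 3, its highest control. Olfm4, another crypt marker (log2 fold change 3.38, adjusted p = 0.0222), lost its call without control replicate 1 (0.0513). Pdk4, which limits glucose oxidation, lay at 458 CPM in deficient replicate 1 and 23.1 to 133 CPM in the other deficient libraries. Its adjusted p of 0.0387 became 0.0553 to 0.082 without any 1 control or deficient replicate 1 or 2, and without replicate 1 its log2 fold change went from 2.94 to 1.95. S100a8 and S100a9, calprotectin subunits of neutrophils (log2 fold change 3.14, adjusted p = 0.0256, and log2 fold change 2.52, adjusted p = 0.0243), lost theirs without any 1 of control replicates 1, 3, 4 and 5, and S100a8 also without control replicate 2 or deficient replicate 7 (0.0515 to 0.0642 and 0.0506 to 0.0573). Fabp6, the ileal bile acid-binding protein, at 0.666 to 15.7 CPM in controls and 8.15 to 97 CPM in deficient mice, had 0.0531 to 0.0735 without any 1 of control replicates 1 to 5 or deficient replicates 3, 6 and 7. Cldn4 (0.0515 to 0.0656) lost its call without any 1 of control replicates 2 to 5 or deficient replicates 6 and 7, and Cldn10 (0.0506 to 0.0637) when 1 of control replicates 1, 3 and 5 or deficient replicate 3 was removed. Gbp7 (0.0543 to 0.0819) missed the threshold when control replicate 1, 2, 4 or 5, or else deficient replicate 1, 2 or 4, was removed. Mvd (0.0527 to 0.0743) missed it if control replicate 2, 4, 5 or 6 was removed, or deficient replicate 3, 6 or 7, and Mptx2 (0.0557 to 0.0697) if 1 of control replicates 3 to 5 or deficient replicates 2, 5 and 6 was. Selenbp1 (0.0513 to 0.0614), a selenium-binding protein, missed the threshold without control replicate 2, 3 or 4 or without deficient replicate 7, and the phospholipase gene Pla2g5 (0.0538) without deficient replicate 6.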

How the data were processed

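Polyadenylated RNA was sequenced from 6 control and 7 Foxa1/2-deficient distal colon segments. The tools are kallisto 0.46.2, cutadapt 2.5 and bcl2fastq 2.20.0.422, with edgeR at no stated version, per the submitters' processing notes, which also name GRCm38 (mm10). Estimated counts were deposited by the authors (expected counts, not whole numbers) and so were TPM, both per transcript, beside 1 matrix of log2 CPM for each segment. How the authors normalized that log2 matrix is not given in the sources used. The kit named in the labels' protocols does not mark strand, so a gene and an antisense partner cannot be told apart.

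Of 119414 transcripts, 116728 were joined to 35975 GENCODE M21 genes by identifier. The others held 0.902% to 1.18% of a library. Estimated counts were summed per gene and rounded. Genes passing filterByExpr were tested with edgeR 4.0.16 (glmQLFit, glmQLFTest, R 4.3.3) after TMM normalization, with Benjamini-Hochberg adjustment and a threshold of 0.05. The standard error (SE) of a log2 fold change is its size over the square root of F. CPM are scaled by TMM library sizes. TPM, deposited by the authors per transcript, were summed per gene and used only for hormone shares. Total counts of 18472867 to 56744113 per library limit low values. The p-values set the difference between groups against the spread between mice. The procedure was tested on simulated counts with known changes.

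Members, 49 gene lists (899 genes) and the rule for named genes were chosen with earlier results of these data known. The rule took Foxa1 to Foxa3, the 12 highest and 12 lowest fold changes among called genes with a mean of 5 CPM or more in either group, the 6 largest rises and 6 largest falls in mean CPM, and up to 4 called members per list of smallest p, or 2 abundant members where none was called. Genes named beyond the rule to complete an account of a list were chosen after their values were seen. Results of some named genes are not reported here. Clone-named genes, antigen receptor segments, mitochondrial and sex-linked marker genes were left out of the rankings. Alternatives were DESeq2 1.42.0, RLE normalization, the authors' log2 CPM with limma 3.58.1, controls without Cre, mice labelled male, mice of 9 to 13 months, no filter, a transcript-length offset, a replicate block, each library left out, and Hoxd13 as a covariate, the last chosen after seeing the data.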

Additional observations from a re-analysis of the deposited data

Results flagged for a closer look

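Single libraries far from the others of their group were looked for among the named genes, by the gap between an extreme library and its nearest neighbour relative to the range of the group. Of 280 groups of libraries 30 were marked. The cut-offs used mark about 1 in 20 groups of independent, normally distributed values. CPM were used without a log scale and all groups came from the same 13 libraries, so the number marked was not compared with chance. Deficient replicate 1 and control replicate 6 had 7 marks each, control replicate 5 had 4, deficient replicate 4 and control replicate 3 had 3 each, deficient replicate 6 and control replicate 1 had 2 each, and control replicate 4 and deficient replicate 3 had 1 each.

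Deficient replicate 1, from a mouse of 9 months, was the highest of its group for Pdk4 (458 CPM, next 133), Ifit2 (924 CPM, next 448), Creb3l3 (132 CPM, next 68.3), Slc6a19 (97.4 CPM, next 24), Prdm1 (66.1 CPM, next 41.9), Scarb1 (50.3 CPM, next 29.6) and Aqp3 (3.03 CPM, next 0.872). All 7 genes are among those higher in deficient mice. Control replicate 6, with Villin1-Cre and 1 wild-type Foxa2 allele, was the highest control for Serpinb11 (4.04 CPM, next 0.555), Krt36 (5.54 CPM, next 1.73), Krt90 (13.3 CPM, next 3.21), S100a8 (14.9 CPM, next 4.26), Slc30a2 (2.58 CPM, next 0.902) and Defb1 (5.54 CPM, next 0.665), and the lowest for Gstm3 (11.8 CPM, next 20.9). For each of these 7 genes it lay on the side of the deficient mice.

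Control replicate 5 was the highest control for the B cell genes Cd79a (83.1 CPM, next 30.3) and Ms4a1 (51.9 CPM, next 19.3), for Spib (56.8 CPM, next 27.2), a factor of B cells and M cells, and for Ly6e (885 CPM, next 682). Control replicate 3 was the highest for Lgr5 (5.41 CPM, next 1.93), Dclk1 (30.3 CPM, next 19.6) and Pla2g5 (46.6 CPM, next 35.3). Control replicate 1 was the highest for the adipocyte gene Cfd (187 CPM, next 57.2) and for St8sia5 (113 CPM, next 32.2), and control replicate 4 for Car1 (1362 CPM, next 679). Among deficient libraries, replicate 4 was the highest for Mcpt1 (42 CPM, next 11.8) and Mcpt2 (26 CPM, next 5.95) and the lowest for Sult1c2 (0.0821 CPM, next 0.368). Replicate 6 was the highest for St8sia5 (0.471 CPM, next 0.179) and the lowest for Dpp4 (34.1 CPM, next 39.8), and replicate 3 was the highest for Klk15 (35.1 CPM, next 9.12).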

How the results depend on the processing

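edgeR as reported gave 433 genes higher and 540 lower. DESeq2 gave 723 and 865, among them all 973 edgeR calls. Mice labelled male alone gave 273 higher and 381 lower genes. RLE normalization gave 427 and 539, the authors' log2 CPM matrix with limma 346 and 434, controls without Cre 454 and 455, mice of 9 to 13 months 371 and 501, no filter on low counts 414 and 509, and a transcript-length offset 386 and 484. Leaving out 1 library gave 342 to 474 higher and 426 to 549 lower genes. With Hoxd13 as a covariate, chosen after seeing the data, 1227 genes were called, 953 of them among the 973. The cause of these differences was not tested. Settings of mice or controls also have fewer libraries.

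Replicate numbers are shared between the groups in the labels, but do not pair the libraries. Deviations of same-numbered libraries correlated at -0.286, 0.552, 0.0225, -0.149, 0.0811 and 0.177 for numbers 1 to 6 over 5000 genes, and only number 2 correlated best with its own number. A fit with the number as a block over 12 libraries gave 279 higher and 405 lower genes, against 855 in all for the same libraries without the block. With the block 23 of the named genes missed the threshold, among them Ifit2 (adjusted p = 0.107), Slc1a1 (0.0765), Car9 (0.0645), Slc6a20a (0.0554) and Sct (0.0546), which no other alternative moved across it.

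Of the 113 called genes taken by the naming rule, 68 were called under all of the 23 alternatives that tested them and 45 lost the call under at least 1. Nedd4l turned direction on the authors' matrix (0.154). Genes that did not pass and had log2 fold changes near 0 also changed sign. Cd74 was at 0.0349 against controls without Cre, 0.143 in mice of 9 to 13 months and -0.152 to 0.0475 with 1 library left out. Dclk1 was at -0.0749 against controls without Cre, -0.161 with the length offset and -0.0421 to 0.218 with 1 library left out. Hoxa13 was at 0.104 and Hspa5 at 0.000544 against controls without Cre. Hoxb13 ranged over -0.0851 to 0.377 and Hspa8 over -0.0781 to 0.139 with 1 library left out. Plvap was at -0.0114 on the authors' matrix, -0.145 against controls without Cre, -0.0693 in mice labelled male and -0.159 to 0.191 with 1 library left out. Depth limits genes under about 1 CPM, such as Sis and Klk15 in controls and Insl5 and Tph1 in deficient mice.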

Other observations

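Of 22 epithelial injury and repair genes, Ereg alone rose and 0 fell (median log2 fold change 0.19), a share of 4.55%, and 3 rose without deficient replicate 2. Of 25 claudin and junction genes 2 rose and 1 fell, a share of 12% against 6.07% over all genes tested. The 2 rises were lost without control replicate 2, 4 or 5 or deficient replicate 7. Of 9 bile acid handling genes, Fabp6 rose and Abcc3 fell, a share of 22.2%, while the median log2 fold change of the list was 1.01. Without control replicate 6, 5 of 10 of these genes rose, against controls without Cre 3 rose, and without deficient replicate 3, 6 or 7 0 rose. S100g, the calcium-binding protein calbindin-D9k of the small intestine, did not pass (log2 fold change 3.29, adjusted p = 0.142) but was uneven between libraries. It was at 394 and 267 CPM in deficient replicates 3 and 7, at 66 to 105 CPM in replicates 4, 5 and 6, at 2.27 and 7.89 CPM in replicates 2 and 1, at 62.8 CPM in control replicate 6 and at 1.01 to 7.25 CPM in the other controls. Control replicate 6 thus had more S100g than any other control, as for Serpinb11 and Krt36.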
